A study of Homo sapiens with 6 samples.

Results

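The nuclear genes for respiratory complexes II, III and IV, cytochrome c and ATP synthase were examined in HCT116 cells, an established human colon cancer line. They were taken from the gene table by symbol as protein-coding genes named SDHA to SDHD, UQCR and its numbered or lettered forms, CYC1, CYCS, COX4 to COX8, COX10 to COX20 and ATP5. This gave 61 of the 62710 genes in the table. A filter on low counts left 54 of them for testing, and the other 7 (COX4I2, COX6A2, COX7A1, COX7B2, COX8C, ATP5MF-PTCD1 and ATP5MGL) had too few counts. By complex, the table held 4 genes of complex II, 11 of complex III with cytochrome c, 17 subunit genes of complex IV, 9 assembly genes of complex IV and 20 genes of ATP synthase with its inhibitor.

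The question put to these libraries was how the transcriptome of the cells differs once IGF2BP3, an RNA-binding protein that reads and stabilizes mRNAs, is knocked down. Bulk RNA-seq was done on 3 libraries of the negative control (sh-NC) and 3 of the knockdown (sh-IGF2BP3). Both groups carried a lentivirus and had been selected with puromycin as stable lines, the former with a scrambled hairpin and the latter with 1 hairpin against IGF2BP3, so a single hairpin stands for the knockdown. The study's text speaks of pairs of control and knockdown cells without tying a library to a pair. No label states that the 3 libraries of a group came from separate cultures, so the p-values measure the spread between libraries, which may be technical. The hairpin sequences, copied from the study's oligo list, are printed because they define the groups. A search of GENCODE 29 transcripts for the bases of the second found them in 4 transcripts of IGF2BP3 and in 1 processed pseudogene.
sh-NC: TTCTCCGAACGTGTCACGT
sh-IGF2BP3: GGCTCAGGGAAGAATTTAT

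IGF2BP3 itself (chr7:23310209-23470491, minus strand, GRCh38) was measured at 90.1, 83.9 and 70.1 CPM (counts scaled to TMM-normalized library totals) in sh-NC 1, 2 and 3 and at 60.1, 52.1 and 55.6 CPM in sh-IGF2BP3 1, 2 and 3. All 3 knockdown libraries lay below all 3 control libraries, with a log2 fold change of −0.54 (SE 0.18) and an adjusted p of 0.126 in edgeR's quasi-likelihood test. This separation was not kept once each library's trend over GC content and length was removed: the groups then overlapped, at −0.20 (adjusted p = 0.667 by edgeR) for the trends over the gene and −0.20 (adjusted p = 0.652 by edgeR) for those over its principal transcript. The exact two-sided permutation test over the 6 libraries gave p = 0.1, the smallest it allows. Library totals ran from 16146718 to 23576469 counts, and every pair of libraries within a group differed by more than counting noise. All 8 markers of colon epithelium had counts, at summed levels of 2152 to 3910 CPM in sh-NC and 3312 to 4418 CPM in sh-IGF2BP3. KRT8 was the largest part, at 1178 to 2164 CPM and 1939 to 2578 CPM. CDH1 was lower in the knockdown, at 125 to 162 CPM in sh-NC and 92.2 to 116 CPM in sh-IGF2BP3. The other markers of this list overlapped between the groups. All 5 immune markers stayed under 1 CPM in each library. Of 6 fibroblast markers, COL1A2 and LUM were at 0, COL3A1 and DCN stayed under 1 CPM, PDGFRB reached 1.14 CPM, and COL1A1 was at 27.9 to 47.2 CPM in sh-NC and 29.6 to 58.4 CPM in sh-IGF2BP3. The summed level of the list, nearly all of it COL1A1, was 28.4 to 48.2 CPM in sh-NC and 30.0 to 59.7 CPM in sh-IGF2BP3. The 3 endothelial markers summed to 1.97 to 4.03 CPM in sh-NC and to 1.24 to 3.71 CPM in sh-IGF2BP3.

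Complex II takes electrons from succinate and passes them to ubiquinone, complex III moves them from ubiquinol to cytochrome c, and complex IV hands them to oxygen. Complexes III and IV pump protons as they do so, and ATP synthase lets the protons flow back through its membrane part, Fo, to drive ATP synthesis in its head, F1. Complex II is encoded by the nucleus alone, whereas complexes III and IV and ATP synthase also hold subunits made from the mitochondrial genome, so their nuclear and mitochondrial subunits must be produced together. In colon cancer cells these enzymes work beside a high rate of glycolysis.

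Nuclear respiratory genes are known as targets of the transcription factors NRF1, GABPA, YY1 and SP1, so their promoters were searched for the letters these factors favour. RefSeq promoters (GRCh38.p14, 250 bases before to 50 after the gene start) were matched by symbol for 47 of the 61 genes and for 15309 protein-coding genes in all. Both strands were read. The NRF1 letters GCGCATGCG were present in 8 of the 47 promoters (17.0%) and in 2.74% of all promoters. The looser form GCGCANGCG, which includes every match of the first, was present in 16 (34.0%) against 11.1%. The ETS letters CCGGAAGTG, bound by GABPA, were found in 5 (10.6%) against 3.61%. The YY1 letters AAGATGGCG were found in 4 (8.51%) against 2.80%, and the SP1 letters GGGGCGGGG in 7 (14.9%) against 22.8%. A match describes the letters only and says nothing on binding. The windows listed next show the 8 promoters with the NRF1 letters, and that of UQCR10 (looser form) as the complex III gene with the largest difference. They also show 3 of the 5 ETS matches, without those of COX17 and COX15. The matched letters are in capitals with 10 bases on either side, and each window reads 5′ to 3′ on the strand of its gene, so that a match on the opposite strand appears as CGCATGCGC or CACTTCCGG.
COX6A1, chr12:120437884-120437912 (plus strand): ggagggcacaCGCATGCGCacgaaggaaa
COX17, chr3:119677504-119677532 (minus strand): gggcctccttGCGCATGCGctgaaggggg
COX18, chr4:73069745-73069773 (minus strand): gcaggcaggcGCGCATGCGctttatgccc
ATP5ME, chr4:674336-674364 (minus strand): gccgctgacgGCGCATGCGtgcgcccagc
ATP5MC2, chr12:53676106-53676134 (minus strand): gcccgggtcaCGCATGCGCtgagccttcc
ATP5PF, chr21:25735156-25735184 (minus strand): cactcaaagaGCGCATGCGtacagagcaa
ATP5F1C, chr10:7788145-7788173 (plus strand): gggagcttcgGCGCATGCGcgctgaggcc
SDHD, chr11:112086753-112086781 (plus strand): agctgtgtttGCGCATGCGcgacgggtgt
UQCR10, chr22:29767351-29767379 (plus strand): gtcggccccaGCGCAGGCGcggtggcgcg
UQCRH, chr1:46303640-46303668 (plus strand): gagtgtgccgCACTTCCGGccagatcgcc
ATP5MK, chr10:103396617-103396645 (minus strand): tgcaattcttCCGGAAGTGtgggcgggct
COX10, chr17:14069475-14069503 (plus strand): agcccgcccgCCGGAAGTGgcggcccgga
Of the 8 genes with the NRF1 letters, 5 (COX6A1, COX17, ATP5ME, ATP5MC2 and ATP5PF) had an unadjusted p under 0.05 for a higher level in sh-IGF2BP3. Of the 44 tested genes with a promoter entry 27 had, and of all genes tested 13.6%. COX18, ATP5F1C and SDHD had log2 fold changes of 0.012, 0.20 and −0.093. Of the 5 genes with the ETS letters, 4 had an unadjusted p under 0.05 for a higher level, and COX15 had a log2 fold change of −0.23.

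Most of the genes had a higher CPM in the knockdown group. Of the 54 tested, 49 had a log2 fold change above 0 (49.0% of all 16753 genes tested had one), with a median of 0.53 against −0.014 over all genes. The median of the set ranged from 0.33 (without sh-IGF2BP3 2) to 0.67 (without sh-IGF2BP3 3) as single libraries were left out. Genes are called here at an adjusted p under 0.05 and a fold change above 1.5. With edgeR's quasi-likelihood test, 0 were called higher and 0 lower, as for all genes tested (0.0% in each direction), and the lowest adjusted p among the 54 was 0.103. At an unadjusted p under 0.05, 33 were higher and 1 was lower, COX20, where all genes gave 13.6% higher and 8.54% lower. The 3 libraries of the knockdown all lay above the 3 controls for 15 genes (13.2% of all genes tested) and all below them for 1 (11.0%).

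DESeq2 called 6 of the genes higher, namely UQCR10, UQCRQ, COX5B, ATP5MF, ATP5F1D and ATP5IF1 (4.21% of the 13298 genes for which it gave an adjusted p were called higher), and it called COX20 lower (1.02%). Together they comprise 2 small subunits of complex III, 1 subunit and 1 assembly factor of complex IV, and 2 subunits and the inhibitor of ATP synthase. Without a filter on low counts edgeR called 9 higher (1.89%). Leaving out sh-NC 1 brought edgeR's calls to 21 higher (10% of all genes in that fit), and leaving out sh-IGF2BP3 3 brought them to 14 higher (3.45%). In contrast, the count at an unadjusted p under 0.05 dropped from 33 to 9 without sh-IGF2BP3 2 (7.53% of all genes), to 16 without sh-NC 2 (7.02%) and to 17 without sh-NC 3 (7.58%). By group of genes, leaving out sh-IGF2BP3 2 brought this count from 7 to 3 in complex III, from 10 to 3 among the complex IV subunits, from 3 to 0 in complex IV assembly and from 13 to 3 in ATP synthase. Leaving out 1 library moved the log2 fold change of 34 of the 54 genes by more than 1.5 times or turned its sign in at least 1 case, most often without sh-IGF2BP3 2 (21 genes) or sh-NC 3 (19 genes). Genes higher without overlap went from 15 to 35 without sh-NC 1 (24.3% of all genes) and to 37 without sh-IGF2BP3 3 (23.4%). Leaving out any other single library gave 15 to 20 (2389 to 2897 of all genes tested in those fits). Genes lower without overlap went from 1 to 2 without sh-NC 1 (25.2%), sh-NC 3 (14.6%) or sh-IGF2BP3 3 (19.9%).

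**Figure D1:**
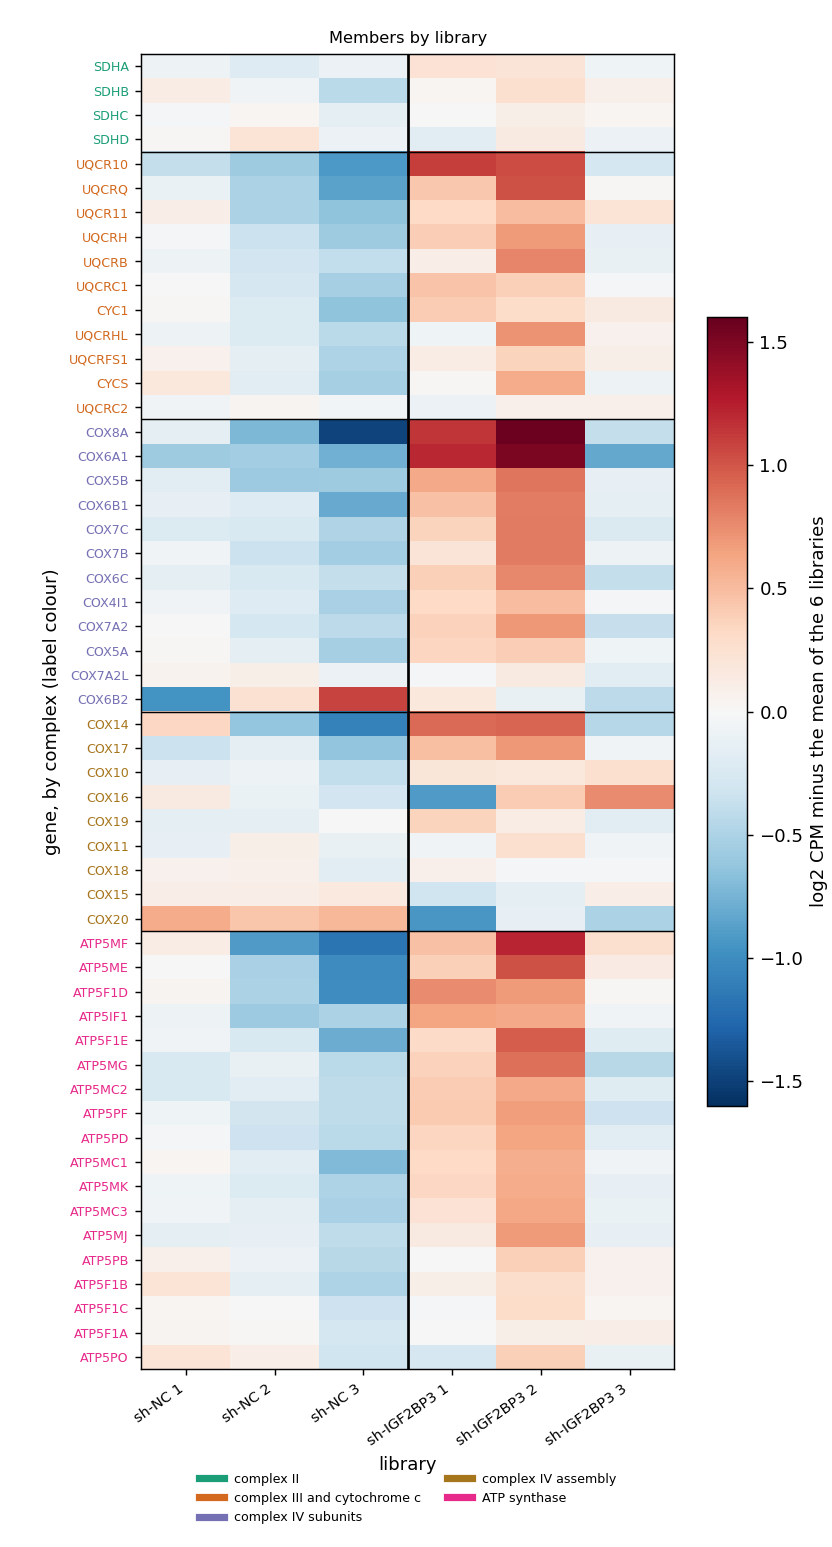
Heat map of the 54 tested genes (rows, ordered by complex and by fold change) in the 6 libraries (columns), with colour giving log2 CPM minus the mean of the 6 libraries. The libraries sh-NC 3 and sh-IGF2BP3 2 hold the deepest blue and red, being the lowest library for 40 genes and the highest for 39, and sh-IGF2BP3 3 is close to the controls.

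The genes varied together from library to library, within the groups as well as between them. The median deviation of the 54 genes from their own mean over the 6 libraries was −0.04, −0.19 and −0.46 on the log2 scale in sh-NC 1, 2 and 3, whereas it was 0.32, 0.59 and −0.079 in sh-IGF2BP3 1, 2 and 3. The library sh-IGF2BP3 3 therefore sat between sh-NC 1 and sh-NC 2 on this measure, and it was below sh-NC 1 for 30 of the 54 genes. Over all genes tested the same medians stayed between −0.012 and 0.036. The TMM scaling holds these near 0, so they do not show how far other sets of genes varied together. As shares of all counts, the 61 genes took 0.46%, 0.44% and 0.38% in sh-NC and 0.53%, 0.59% and 0.46% in sh-IGF2BP3. In bulk RNA a change in the share of cells that express a gene and a change in the amount per cell cannot be told apart.

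**Figure D2:**
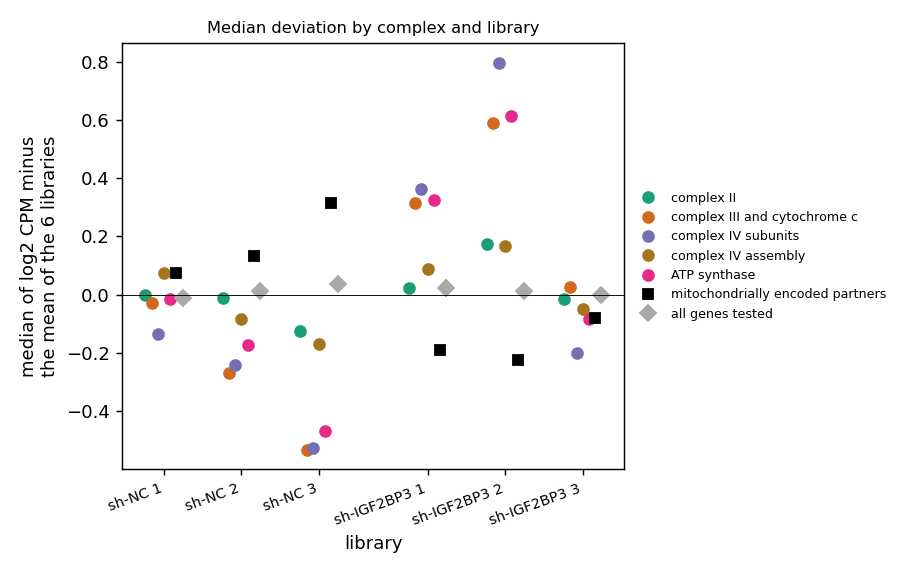
Median over the genes of each complex of log2 CPM minus the mean of the 6 libraries (vertical axis), in each library (horizontal axis); squares are the 6 mitochondrially encoded partners and diamonds all 16753 genes tested. Complexes III and IV and ATP synthase spread from about the level of sh-NC 3 up to that of sh-IGF2BP3 2, complex II and the assembly genes spread less, and the mitochondrial partners lie above 0 in each sh-NC library and below 0 in each sh-IGF2BP3 library.

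Complex II, which has no proton pump and no mitochondrial subunit, showed small differences. Its 4 genes had a median log2 fold change of 0.16, and none had an unadjusted p under 0.05. For 1 gene all knockdown libraries lay above the controls, as they did for 13.2% of all genes. SDHA, the flavoprotein that oxidizes succinate, was at 9.18, 8.41 and 9.13 CPM in sh-NC 1, 2 and 3 and at 11.5, 11.2 and 9.29 CPM in sh-IGF2BP3 1, 2 and 3. All 3 knockdown libraries were above the controls, by a narrow margin in sh-IGF2BP3 3, and the log2 fold change was 0.26 (SE 0.24, adjusted p = 0.544 by edgeR). With each library's trend over transcript GC content and length removed it was 0.11 and the groups overlapped. With the gene trends removed it was 0.36, higher without overlap. Of 50-base stretches of the SDHA transcript, 22.3% also occur in other genes, among them pseudogenes, and 6 pseudogenes named after SDHA held 2043 counts, against 1083 on SDHA itself.

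SDHB, the iron-sulfur subunit, was at 83.5, 73.9 and 57.4 CPM in the controls and at 79.0, 92.2 and 81.5 CPM in the knockdown libraries, listed here and from here on in the order 1, 2 and 3. The groups overlapped, with sh-NC 3 the lowest and sh-IGF2BP3 2 the highest library, and the log2 fold change was 0.23 (SE 0.19), ranging from 0.076 without sh-NC 3 to 0.36 without sh-NC 1. The membrane anchors SDHC and SDHD, which hold the site for ubiquinone, were at 81.9, 85.1 and 74.9 CPM against 83.8, 88.4 and 85.2 CPM and at 43.5, 49.9 and 40.1 CPM against 37.7, 47.4 and 40.1 CPM. Both overlapped between the groups, with log2 fold changes of 0.090 (SE 0.17) and −0.093 (SE 0.19). With the transcript trends removed, SDHC stood at 0.56, higher without overlap, and was the 1 gene of complex II at an unadjusted p under 0.05. The principal transcript used for SDHC had 13566 bases, against 1902 in the authors' FPKM, and the value depends on that choice. SDHB was at 0.13 and SDHD at 0.045 in that setting, both with overlap. With the gene trends removed SDHC was at 0.23, higher without overlap, and SDHB and SDHD at 0.22 and 0.094 with overlap.

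In complex III, all 11 genes had a log2 fold change above 0 (median 0.54), although CYC1 was below 0 with the gene trends removed and UQCRC2 with upper-quartile scaling. Of the 11, 7 had an unadjusted p under 0.05 (13.6% of all genes were higher at it) and 6 did not overlap between the groups (13.2%). The largest difference was in UQCR10 (chr22:29767369-29770413, plus strand), a small subunit that sits beside the cytochrome c1 and Rieske proteins. It was at 5.86, 5.15 and 4.03 CPM in the controls and at 16.7, 16.0 and 6.29 CPM in the knockdown libraries. The first and second knockdown libraries were well above every control and sh-IGF2BP3 3 was just above sh-NC 1, the highest of them. The log2 fold change was 1.37 (SE 0.34, adjusted p = 0.103 in edgeR's quasi-likelihood test).

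UQCRQ (chr5:132866630-132868847, plus strand), the small subunit that neighbours cytochrome b, was at 29.8, 22.4 and 17.6 CPM in sh-NC and at 43.2, 64.8 and 32.6 CPM in sh-IGF2BP3. Again no knockdown library fell among the controls, and the log2 fold change was 1.01 (SE 0.26, adjusted p = 0.103 by edgeR). UQCRH, the acidic hinge protein that aids the docking of cytochrome c, was at 103, 82.4 and 70.4 CPM against 138, 168 and 95.4 CPM. Here sh-IGF2BP3 3 lay below sh-NC 1, so the groups overlapped, with a log2 fold change of 0.65 (SE 0.22), or 0.42 with the transcript trends removed. Its retrocopy UQCRHL was at 4.79, 4.33 and 3.72 CPM against 4.79, 8.42 and 5.33 CPM and differed by 0.53 (SE 0.31). Of 50-base stretches of the UQCRH transcript, 29.4% occur in another gene, so reads of this pair may have been split by the authors' counting.

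CYC1, the cytochrome c1 that passes electrons on, was at 154, 130.1 and 97.4 CPM in the controls and at 202, 185 and 167 CPM in the knockdown libraries, without overlap, and had a log2 fold change of 0.54 (SE 0.20). This value was not kept when the library trends over GC content and gene length were removed, where it was −0.034, or over those of the transcript, where it was 0.015. CYC1 is rich in GC, as is UQCRC1, a core subunit, for which 0.54 became 0.14 with the gene trends removed. UQCRC2, the partner of UQCRC1 in the core, was at 183, 196 and 184 CPM against 178, 202 and 201 CPM, with all 6 libraries in a narrow band and a log2 fold change of 0.047 (SE 0.18). With the gene trends removed it was 0.18 and with the transcript trends removed 0.20, higher without overlap in both, against 0.14 and 0.18 with overlap for UQCRC1. UQCR11, UQCRB and the Rieske protein UQCRFS1 had log2 fold changes of 0.66, 0.56 and 0.36, and of these UQCRFS1 did not reach an unadjusted p under 0.05. With the gene and the transcript trends removed UQCRB was larger, at 0.98 and 0.97, and UQCR11 smaller, at 0.47 and 0.44.

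CYCS, the somatic cytochrome c that shuttles electrons to complex IV and triggers apoptosis once it leaves the mitochondrion, was at 252, 199 and 155 CPM in sh-NC and at 228, 337 and 211 CPM in sh-IGF2BP3. Its groups overlapped, since sh-NC 1 was the second highest of all 6 libraries, and its log2 fold change was 0.36 (SE 0.23, adjusted p = 0.367 by edgeR). It ranged from 0.12 (without sh-IGF2BP3 2) to 0.55 (without sh-NC 1) with 1 library left out, and with the gene and the transcript trends removed it was 0.62 and 0.66, again with overlap.

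Of the 12 tested subunit genes of complex IV, 10 were higher in sh-IGF2BP3 at an unadjusted p under 0.05 and 0 were lower. Over all genes tested the shares were 13.6% and 8.54%. The median log2 fold change was 0.63, above those of the other 4 groups of genes. With the transcript trends removed complex III, at 0.56, was above complex IV, at 0.55, as it was without sh-IGF2BP3 2, at 0.46 against 0.39. The libraries were free of overlap for 2 genes, COX5B and COX4I1, where 13.2% of all genes were higher without overlap. For the other 8 of the 10, sh-IGF2BP3 3 lay within or below the range of the controls. The medians of log2 CPM minus each gene's mean were −0.13, −0.24 and −0.53 in the controls and 0.36, 0.80 and −0.20 in the knockdown libraries. COX8A (chr11:63974620-63976543, plus strand), a small subunit in the membrane and the ubiquitous form of its family, was at 24.4, 16.4 and 9.58 CPM in the controls and at 59.3, 80.1 and 20.7 CPM in the knockdown libraries. The level in sh-IGF2BP3 3 lay between those of sh-NC 1 and sh-NC 2, whereas the other knockdown libraries were above all controls. The log2 fold change was 1.67 (SE 0.39, adjusted p = 0.103 in edgeR's quasi-likelihood test). It was 0.966 with the transcript trends removed, below UQCR10, ATP5F1E, COX6A1 and UQCRB at 1.24, 1.12, 1.06 and 0.973. This order depends on the principal transcripts taken, of 3665 bases for ATP5F1E, 5575 for UQCRB and 507 for COX8A. With the gene trends removed COX8A was at 1.34, below COX6A1 and UQCR10 at 1.77 and 1.41.

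COX6A1 (chr12:120438090-120440737, plus strand), the liver-type form of a subunit that regulates the enzyme, was at 11.8, 11.8 and 10.2 CPM in the controls, which lay close together, and at 40.5, 50.1 and 9.92 CPM in the knockdown libraries. Thus sh-IGF2BP3 3 was the lowest of the 6 libraries while the other two knockdown libraries were the highest. The log2 fold change was 1.57 (SE 0.40, adjusted p = 0.103 by edgeR). Both genes lie almost wholly inside longer annotated genes on the same strand, each of which held at most 3 counts in a library, and of 50-base stretches of the COX6A1 transcript 44.0% occur in other genes, which include its processed pseudogenes.

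COX5B (chr2:97646062-97648383, plus strand), the subunit that binds zinc, was at 29.9, 22.5 and 22.7 CPM against 51.5, 61.0 and 30.8 CPM, with sh-IGF2BP3 3 marginally above sh-NC 1. Its log2 fold change was 0.93 (SE 0.24, adjusted p = 0.103 by edgeR), or 0.59 with the transcript trends removed. COX6B1, which joins the enzyme's monomers on the outer side of the inner membrane, was at 43.6, 41.3 and 27.3 CPM against 66.4, 84.3 and 43.1 CPM. There sh-IGF2BP3 3 fell within the range of the controls, and the log2 fold change was 0.79 (SE 0.25), or 0.30 with the transcript trends removed. COX4I1, the largest nuclear subunit and the site where ATP inhibits the enzyme, was at 182, 164 and 132 CPM against 237, 266 and 187 CPM without overlap. Its log2 fold change was 0.53 (SE 0.20), 0.61 without the gene trends and 0.089 without the transcript trends. COX7C, COX7B, COX6C and COX5A, further small or matrix-side subunits, had log2 fold changes of 0.69, 0.68, 0.59 and 0.44.

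**Figure D3:**
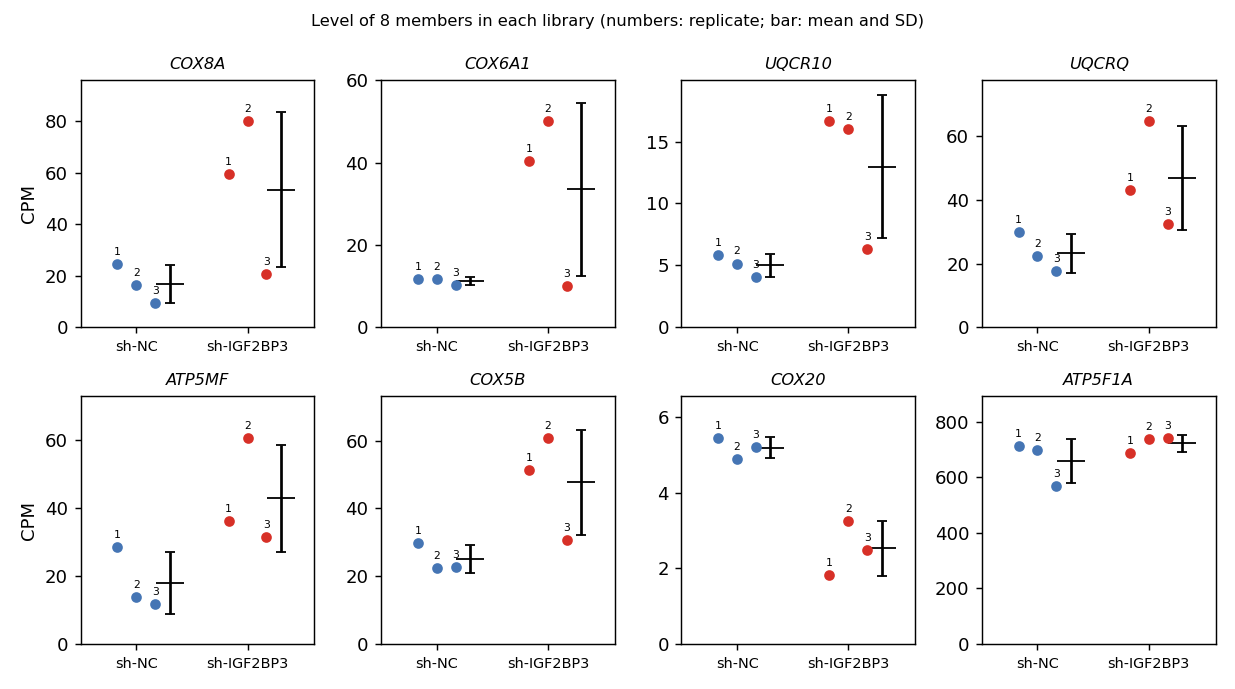
CPM (vertical axes, from 0, each with its own scale) of 8 genes in the 3 sh-NC (blue) and 3 sh-IGF2BP3 (red) libraries, with points numbered by replicate and bars for the mean and SD (n = 3). The third knockdown library is near the controls for COX8A, COX6A1 and UQCR10, COX20 is below the controls in all 3 knockdown libraries, and ATP5F1A is at similar levels in both groups.

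Several complex IV subunits exist as pairs of a general and a tissue form, and in these cells the general forms held nearly all counts. COX4I2, the lung form, had 6 counts over all libraries, COX7B2 had 1, and the muscle form COX6A2 and the testis form COX8C had 0. COX7A1, the heart and muscle form, was at 0.394, 0.206 and 0.204 CPM in sh-NC and at 0.856, 1.31 and 0.453 CPM in sh-IGF2BP3, on 59 counts in all. The lowest knockdown library was above the highest control, but the gene was below the filter of the main test. In edgeR's fit without that filter its log2 fold change was 1.70 (SE 0.62, adjusted p = 0.133), and DESeq2 gave 1.72 with no adjusted p. COX7A2, the general form, was at 48.6, 40.0 and 36.5 CPM against 62.8, 78.8 and 37.5 CPM, with overlap and a log2 fold change of 0.52 (SE 0.24). COX7A2L, a relative that takes part in joining complexes III and IV into supercomplexes, was at 50.3, 51.8 and 45.3 CPM against 47.8, 53.6 and 43.2 CPM. The groups overlapped, with a log2 fold change of −0.027 (SE 0.18), or 0.20 with the gene trends removed.

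The ratio of COX7A2 to COX7A2L in FPKM, which divides counts by the gene length the authors used (1922 and 5605 bases), was 2.82, 2.25 and 2.35 in the controls and 3.83, 4.29 and 2.53 in the knockdown libraries, so sh-IGF2BP3 3 fell between the controls. COX6B2, the testis form of COX6B1, was near the detection limit at 0.282, 0.783 and 1.48 CPM against 0.742, 0.587 and 0.453 CPM. The control libraries alone span the values of all others, and the log2 fold change of −0.52 (SE 0.56) went from −0.90 to 0.096 as single libraries were left out.

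The 9 genes of complex IV assembly, which bring copper and heme into the enzyme and guide its mitochondrial subunits into the membrane, had a median log2 fold change of 0.22. With the transcript trends removed it was 0.42, above ATP synthase at 0.39, and no difference between the groups of genes was tested. Of the 9, 3 were higher and 1 was lower at an unadjusted p under 0.05 (13.6% and 8.54% of all genes). COX17 (chr3:119654513-119677454, minus strand), the copper chaperone of the intermembrane space, was at 9.12, 10.4 and 7.44 CPM in the controls and at 16.2, 18.8 and 11.1 CPM in the knockdown libraries. All knockdown libraries were above the controls, sh-IGF2BP3 3 by the least, and the log2 fold change was 0.77 (SE 0.26, adjusted p = 0.130 by edgeR). COX14, which binds newly made COX1, was at 5.74, 2.93 and 2.09 CPM against 8.61, 8.81 and 3.29 CPM, with sh-NC 1 above sh-IGF2BP3 3. Its log2 fold change of 0.95 (SE 0.41) ranged from 0.65 to 1.45 with 1 library left out and was 0.50 with the transcript trends removed. COX10, which makes heme O on the way to heme A, was at 33.8, 35.2 and 28.3 CPM against 42.6, 41.8 and 44.4 CPM. It was 1 of 3 genes in which sh-IGF2BP3 3 was the highest library, and its log2 fold change was 0.40 (SE 0.19).

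COX20 (chr1:244835616-244845057, plus strand), a chaperone of newly made COX2, went the other way. It was at 5.46, 4.91 and 5.20 CPM in the controls and at 1.83, 3.26 and 2.49 CPM in the knockdown libraries. All 3 knockdown libraries were below all controls, with no control apart from the others, and the log2 fold change was −1.04 (SE 0.32, adjusted p = 0.117 in edgeR's quasi-likelihood test). It remained between −1.26 and −0.85 with any 1 library left out and was −0.85 without the gene trends and −0.82 without the transcript trends. Of 50-base stretches of its transcript, 83.0% occur in other genes, and part of it lies across from HNRNPU on the opposite strand. HNRNPU, which was far more abundant, was at 1185, 997 and 818 CPM against 829, 1166 and 1125 CPM, with overlap. Whether the counts used strand is not given in the sources used here, so reads of this pair may be shared between them. COX15, the next enzyme after COX10 in heme A synthesis, had a log2 fold change of −0.23, and COX11, COX16, COX18 and COX19 had 0.11, 0.35, 0.012 and 0.22, none with an unadjusted p under 0.05. With the transcript trends removed COX11 was at 0.40, higher without overlap, and COX18 at 0.42 with overlap. With the gene trends removed COX11, COX18 and COX15 were at 0.27, 0.32 and −0.078, all with overlap.

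**Figure D4:**
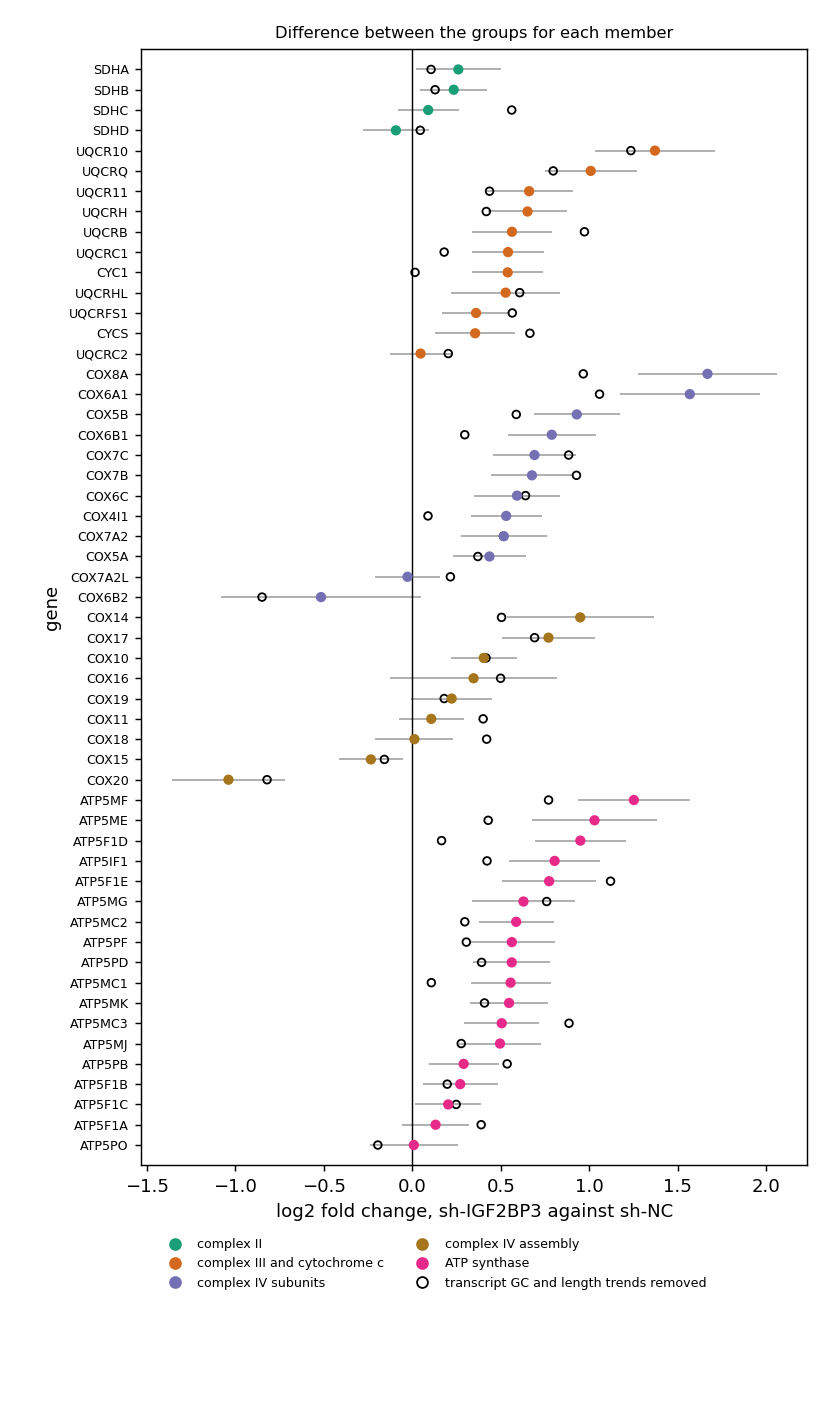
Log2 fold change of sh-IGF2BP3 against sh-NC (horizontal axis) for each of the 54 tested genes (vertical axis, coloured by complex), with bars of 1 SE and open circles for the value after the transcript GC and length trends were removed. COX8A at 1.67 and COX6A1 at 1.57 are farthest to the right, COX20 at −1.04 is farthest to the left, and most open circles stay right of 0.

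All 18 tested genes of ATP synthase and its inhibitor had log2 fold changes above 0 (median 0.56, or 0.36 without sh-IGF2BP3 2), although ATP5PO was below 0 with upper-quartile scaling, a floor of 10 counts, or the transcript trends removed. Of the 18, 13 had an unadjusted p under 0.05 for a higher level (13.6% of all genes). Without sh-IGF2BP3 2 this count was 3 (7.53% of all genes), and it was 6 each without sh-NC 2 and sh-NC 3 (7.02% and 7.58%). The groups did not overlap for 4 of the 18 (13.2% of all genes). The 5 genes of the F1 head had a median of 0.27 with 2 below that threshold of p, and the 12 genes of Fo and the stalk a median of 0.56 with 10. The difference between these medians was not tested. ATP5F1A and ATP5F1B, the alpha and beta subunits that form the catalytic ring, had log2 fold changes of 0.13 and 0.27, and the gamma subunit ATP5F1C, the central shaft, of 0.20. Of these 3 none had an unadjusted p under 0.05. With the gene and the transcript trends removed, ATP5F1A was at 0.37 and 0.39 and ATP5F1C at 0.32 and 0.25, all without overlap, and ATP5F1B at 0.17 and 0.20 with overlap. ATP5F1D (chr19:1241746-1244825, plus strand), the delta subunit at the foot of the shaft, was at 44.7, 30.6 and 21.8 CPM in the controls and at 73.7, 69.7 and 44.0 CPM in the knockdown libraries. The library sh-IGF2BP3 3 was level with sh-NC 1 and the others were higher, with a log2 fold change of 0.95 (SE 0.26, adjusted p = 0.103 by edgeR). With the gene trends removed it was 0.38, and with the transcript trends removed 0.17. ATP5F1E, the epsilon subunit bound next to it, had 0.77.

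In the membrane part, ATP5MF (chr7:99448475-99466186, minus strand), the f subunit near the dimer interface, was at 28.4, 13.9 and 11.6 CPM in sh-NC and at 36.3, 60.8 and 31.4 CPM in sh-IGF2BP3. The lowest knockdown library, sh-IGF2BP3 3, was above the highest control, sh-NC 1, which lay well above the other controls. The log2 fold change was 1.25 (SE 0.32, adjusted p = 0.103 in edgeR's quasi-likelihood test). With the gene trends removed it was 0.92 and the groups overlapped, below ATP5F1E at 1.07 and ATP5MG at 1.04. With the transcript trends removed it was 0.77, below ATP5F1E at 1.12 and ATP5MC3 at 0.89. ATP5MF lies within the span of PTCD1 and of the readthrough gene ATP5MF-PTCD1, which together held far fewer counts. ATP5ME, the e subunit at the same interface, was at 4.22, 2.89 and 2.04 CPM against 5.48, 8.62 and 4.59 CPM, without overlap. Its log2 fold change was 1.03 (SE 0.35) and 0.43 with the transcript trends removed.

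The ring that turns in the membrane is built of subunit c, which is the same mature protein from 3 genes. ATP5MC1 was at 45.2, 39.2 and 26.9 CPM against 55.1, 66.2 and 42.4 CPM, ATP5MC2 at 44.4, 46.6 and 39.9 CPM against 69.9, 80.5 and 46.3 CPM, and ATP5MC3 at 109, 102 and 78.8 CPM against 133, 173 and 105 CPM. For all 3 genes sh-IGF2BP3 2 was the highest library, sh-NC 3 the lowest, and the groups overlapped. Their log2 fold changes were 0.56 (SE 0.23), 0.59 (SE 0.21) and 0.51 (SE 0.21), so no gene of the set stood apart by more than its error. With the transcript trends removed they spread to 0.11, 0.30 and 0.89. In FPKM, the ratio of ATP5MC1 to ATP5MC3 was 0.618, 0.570 and 0.507 in sh-NC and 0.617, 0.566 and 0.6001 in sh-IGF2BP3, which overlap throughout.

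The stalk genes ATP5PB, ATP5PD and ATP5PF had log2 fold changes of 0.29, 0.56 and 0.56, an order that turned to 0.54, 0.39 and 0.31 with the transcript trends removed. The fourth, ATP5PO, which ties the stalk to the head and confers sensitivity to oligomycin, was at 17.5, 16.3 and 12.0 CPM against 12.6, 19.6 and 13.9 CPM. Its groups overlapped fully, with a log2 fold change of 0.0085 (SE 0.25), and 69.0% of the 50-base stretches of its transcript occur in other genes. ATP5MG, ATP5MJ and ATP5MK, small subunits of the membrane part, had 0.63, 0.50 and 0.55, each with an unadjusted p under 0.05. In the same order they had 0.76, 0.28 and 0.41 with the transcript trends removed, and 0.28, 0.24 and 0.37 without sh-IGF2BP3 2. ATP5IF1 (chr1:28236109-28246906, plus strand), the peptide that blocks the enzyme from running in reverse, was at 13.0, 9.11 and 9.64 CPM in the controls and at 21.2, 20.9 and 13.2 CPM in the knockdown libraries. The knockdown libraries were all above the controls, sh-IGF2BP3 3 marginally, and the log2 fold change was 0.80 (SE 0.26, adjusted p = 0.122 by edgeR), or 0.42 with the transcript trends removed. In FPKM, ATP5IF1 came to 0.0116, 0.0105 and 0.0141 of ATP5F1B in sh-NC and to 0.0207, 0.0177 and 0.0130 in sh-IGF2BP3, with overlap. The length behind its FPKM was 2225 bases against 494 in the principal transcript, so the shares compare libraries and do not give the proportion of the 2 transcripts.

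The subunits of the same enzymes that come from the mitochondrial genome were lower in the knockdown libraries, without a call. All 6 had log2 fold changes below 0 with a median of −0.34 (MT-CO2 was at 0.020 without sh-IGF2BP3 3), and 5 of them did not overlap between the groups (11.0% of all genes tested lay lower without overlap). The direction was not particular to these 6: the mitochondrial genome as a whole took 6.12%, 7.32% and 7.76% of counts in sh-NC and 5.24%, 5.47% and 5.89% in sh-IGF2BP3. With the gene trends removed, MT-CO1 and MT-CYB alone kept apart, 2 of the 6 (5.91% of all genes), and with the transcript trends removed the count was 5 (5.99%). MT-CO1, the catalytic subunit of complex IV, was at 13717, 15935 and 17271 CPM in sh-NC and at 10143, 9939.9 and 12817 CPM in sh-IGF2BP3. Its log2 fold change was −0.51 (SE 0.21, adjusted p = 0.173 by edgeR), and it was the only one of the 6 with an unadjusted p under 0.05 (8.54% of all genes lower). With the replicate block or the gene trends removed 0 of the 6 had one, as without sh-NC 2, sh-IGF2BP3 1 or sh-IGF2BP3 2. Upper-quartile scaling and removal of the transcript trends gave 3 each, and DESeq2 gave 2. MT-ATP6, the channel for protons, was at 4597, 4828 and 5453 CPM against 3659, 3508 and 4129 CPM, and MT-CYB, the cytochrome b of complex III, at 3012, 3089 and 3680.1 CPM against 2486, 2406 and 2683 CPM. These differed by −0.40 and −0.37 on the log2 scale. MT-ATP8 and MT-CO3 had −0.30 and −0.30, and MT-CO2, which overlapped, −0.083. With the gene trends removed MT-ATP8 was at 0.089 and MT-CO2 at 0.0035, so the shared direction was not kept there, whereas all 6 were below 0 with the transcript trends removed.

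Summed over each enzyme, nuclear subunits took up more counts relative to mitochondrial ones in sh-IGF2BP3. The ratio of nuclear complex IV subunits to MT-CO1, MT-CO2 and MT-CO3 was 0.0259, 0.0202 and 0.0156 in the controls and 0.0433, 0.0544 and 0.0264 in the knockdown libraries. For complex III against MT-CYB it was 0.301, 0.258 and 0.186 against 0.445, 0.523 and 0.346. For ATP synthase against MT-ATP6 and MT-ATP8 it was 0.544, 0.450 and 0.317 against 0.687, 0.838 and 0.587. In each of the 3 enzymes the groups did not overlap, although for complex IV the margin between sh-NC 1 and sh-IGF2BP3 3 was narrow. The ratios were not recomputed with the gene or transcript trends removed, and no share over other sets of genes was taken beside them. Counts are not scaled by length here, so the ratios compare libraries and do not give the stoichiometry of the subunits.

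Among 34 further assembly factors of complexes II to V found in the table, 31 were tested, and 9 were higher and 1 was lower at an unadjusted p under 0.05 (13.6% and 8.54% of all genes) with a median log2 fold change of 0.19. TACO1, which activates translation of COX1 in the mitochondrion, was at 10.6, 6.88 and 5.71 CPM against 22.1, 19.8 and 11.7 CPM, without overlap, and differed by 1.21 (SE 0.30, adjusted p = 0.103 by edgeR), or by 0.86 with the transcript trends removed. HIGD2A, an assembly factor of complex IV, was at 12.3, 7.54 and 6.73 CPM against 24.99, 26.6 and 8.56 CPM and differed by 1.18 (SE 0.36), with sh-IGF2BP3 3 among the controls, or by 0.69 with the transcript trends removed. DESeq2 called TACO1 and HIGD2A higher (adjusted p = 0.0126 and 0.0353), as it did 4.21% of all genes. LYRM7, which delivers the Rieske protein to complex III, was at 23.7, 29.9 and 26.2 CPM against 15.3, 21.5 and 19.7 CPM, lower in all 3 knockdown libraries, with a log2 fold change of −0.50 (SE 0.21) that was −0.15 once the gene trends were removed. LRPPRC, which stabilizes mitochondrial mRNAs, was at 561, 541 and 501 CPM against 343, 455 and 520.0 CPM, with overlap, and had a log2 fold change of −0.28 (SE 0.20), or 0.15 with the gene trends removed.

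NDUFA4, a complex IV subunit outside the naming rule, had a log2 fold change of 0.69 (SE 0.25), within the range of its partners. Of 11 tested transcription factors and coactivators of respiratory genes, 1 was higher and 0 were lower at an unadjusted p under 0.05, beside 13.6% and 8.54% of all genes. The 1 was ESRRA, a nuclear receptor of energy metabolism, at 45.9, 32.6 and 28.5 CPM against 77.2, 65.9 and 44.5 CPM with overlap and a log2 fold change of 0.81 (SE 0.23), which was 0.27 with the gene trends removed. DESeq2 called ESRRA higher (adjusted p = 0.0427), as it did 4.21% of all genes. NRF1, GABPA, YY1 and SP1, whose letters were searched for in the promoters, had log2 fold changes of 0.17, −0.18, 0.18 and −0.26. Of the 4 carriers for phosphate and for ADP and ATP, 1 was higher at that threshold and 0 were lower. This was SLC25A6, at 0.55, which was −0.076 with the gene trends removed.

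Short transcripts made up much of the set, and the differences were larger in them. Over the 54 genes, the length of the principal transcript and the log2 fold change had a Spearman rho of −0.63 (Pearson r −0.57 on the log of length), and over 13124 tested genes with a known principal transcript rho was −0.41. With the length behind the authors' FPKM, rho was −0.56 in the set and −0.26 over all 16753 genes. The principal transcript was the longest of the best-ranked ones. The length classes and the values with the transcript trends removed depend on that choice. These are descriptions across genes, which share libraries and are not independent. For the GC content of the transcript, rho was 0.29 in the set and 0.66 over all genes. Under 1000 bases, 20 genes of the set had a median log2 fold change of 0.80 and 19 of them (95.0%) were higher at an unadjusted p under 0.05, where 591 such genes overall had a median of 0.52 and 47.5%. At 1000 bases or more, 34 genes had a median of 0.35 and 14 of them (41.2%), where 12533 genes overall had −0.0016 and 14.7%. In both classes the median of the set was above that of all genes.

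**Figure D5:**
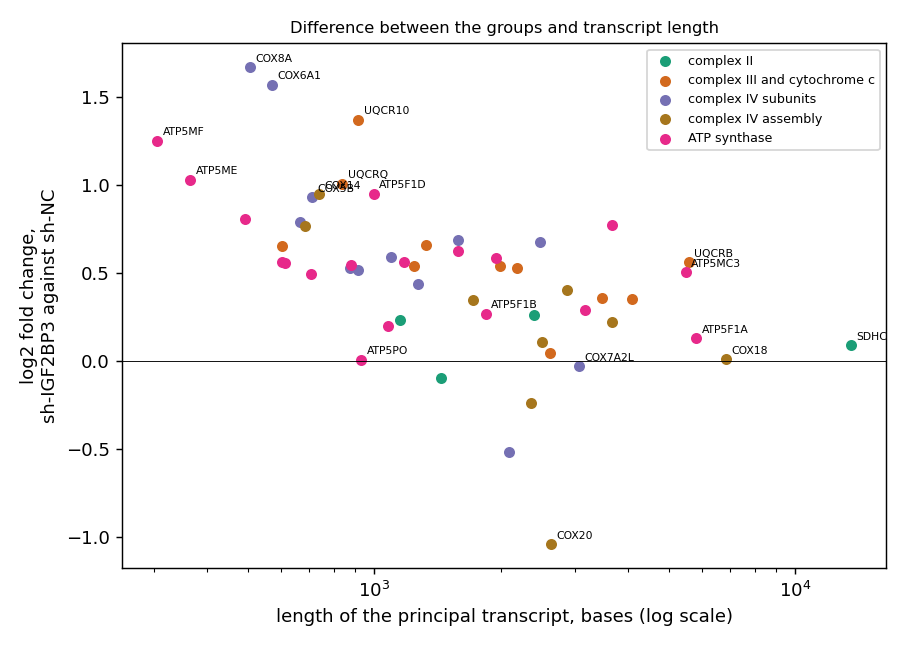
Log2 fold change of sh-IGF2BP3 against sh-NC (vertical axis) by length of the principal transcript in bases (horizontal axis, log scale) for the 54 tested genes, coloured by complex. Genes with short transcripts such as COX8A (507 bases), COX6A1 (572 bases) and ATP5MF (305 bases) are at the top left, and ATP5F1A (5818 bases) is near 0.

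When each library's trend over GC content and gene length was removed, 31 genes of the set were higher at an unadjusted p under 0.05 (8.24% of all genes) and 21 did not overlap between the groups in that direction (9.88%). With the trends over the principal transcript removed, the counts were 27 (8.18%) and 20 (10.5%), and the median log2 fold change of the set was 0.42. Single genes moved in both directions: with the gene trends removed 12 of the 54 values were larger by more than 1.5 times, 5 smaller by more than 1.5 times and 3 of the other sign, and with the transcript trends removed 11, 19 and 3. The enzymes kept medians of 0.56 for complex III, 0.55 for the complex IV subunits and 0.39 for ATP synthase in that setting. Nested gene models were also counted. Of the 14 genes with 90% or more of their span within a second gene of the same strand, 11 were tested. Their median was 0.63 and 6 were higher at an unadjusted p under 0.05 (13.6% of all genes). The 44 genes with under 10% of their span in such a gene had 40 tested, a median of 0.53 and 26 higher.

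In the authors' FPKM, the catalytic beta subunit of ATP synthase stood above all other genes of the set. ATP5F1B was at 407 ± 73.6 FPKM in sh-NC and at 469 ± 30.6 FPKM in sh-IGF2BP3 (mean ± SD, n = 3). CYC1, UQCRH and ATP5F1A were at 65.9 ± 10.6, 64.7 ± 8.11 and 61.8 ± 4.48 FPKM in the controls, and these 3 did not differ beyond their SDs. COX8A was at 34.3 ± 13.1 FPKM in the controls and at 105 ± 58.2 FPKM in the knockdown group, where its SD covers the levels of CYC1 (91.7 ± 10.6) and UQCRH (96.9 ± 25.4). Relative to COX4I1, COX8A was at 1.31, 0.973 and 0.708 in sh-NC and at 2.44, 2.94 and 1.08 in sh-IGF2BP3, with overlap. In complex II, SDHC was at 43.5 ± 2.37 FPKM, SDHB at 31.4 ± 3.89 FPKM and the catalytic SDHA at 1.05 ± 0.0842 FPKM.

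These levels rest on the gene length in the authors' values, which often differed from that of the principal transcript, so the order of most genes cannot be read from them. The length used was above the principal transcript for COX4I1 (4816 against 873 bases), UQCRB (12600 against 5575), SDHA (8703 against 2390) and SDHB (2324 against 1153), which sets their FPKM low by comparison. It was below it for SDHC (1902 against 13566 bases), which sets that gene high by comparison. The principal transcript taken was the longest of the best-ranked ones, and which transcript these cells express was not tested.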

How the data were processed

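RNA-seq of 3 sh-NC and 3 sh-IGF2BP3 libraries of HCT116 cells was analysed. The authors deposited raw counts per gene, and FPKM values that equal the count divided by the library total and a gene length. The submitters' processing notes name CASAVA and GRCh38. The aligner, the counter and the use of strand are not given in the sources used here. The counts were fitted with edgeR 4.0.16 in R 4.3.3 (filterByExpr, TMM, two-sided quasi-likelihood test) and adjusted by Benjamini-Hochberg over the 16753 genes tested. The thresholds, an adjusted p of 0.05 and a fold change of 1.5, are those of the study's methods. SEs are the log2 fold change over the root of F. FPKM served only for levels and ratios between genes. The edgeR script was tested on simulated counts with known fold changes.

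Genes shown in every library were, in each complex, the 4 with the smallest p and the 1 with the lowest fold change, genes called by DESeq2, paralogue sets, CYCS and ATP5IF1, and beyond the set the 2 assembly factors with the smallest p in each direction and the mitochondrial partners; COX7A1 and ESRRA were added after their values were seen. The members, the lists, the motif letters and this rule were chosen with earlier results of these data known. The alternatives were DESeq2 1.42.0, RLE and upper-quartile scaling, no filter, a floor of 10 counts in all libraries, blocking on the replicate number, an adjusted p alone, leaving out single libraries, and removal of each library's trend (splines with 5 degrees of freedom) over GC content and gene length and, added after seeing the data, over those of the principal transcript (GENCODE 29). Where several transcripts of a gene shared the best principal rank, the longest was taken.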

Additional observations from a re-analysis of the deposited data

How the results depend on the processing

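Across the alternatives, 177 of the values recomputed for the results that answer a comparison stayed within their limits and 16 moved. Of the other recomputed values, 420 were labelled the same, 42 stronger and 17 reversed. The set median of 0.33 without sh-IGF2BP3 2, against 0.53 in the main fit, still counted as within its limits. Against 0 genes called higher, DESeq2 gave 6 and no filter on low counts 9, and leaving out 1 library gave 0 to 21 (21 when sh-NC 1 was left out, 14 for sh-IGF2BP3 3). DESeq2 called 1 lower. Leaving out 1 library gave 9 to 37 genes (9 without sh-IGF2BP3 2, 16 without sh-NC 2 and 17 without sh-NC 3) higher at an unadjusted p under 0.05, 15 to 37 higher without overlap (35 when sh-NC 1 was left out, 37 for sh-IGF2BP3 3, where 24.3% and 23.4% of all genes were) and 1 to 2 lower without overlap (2 without sh-NC 1, sh-NC 3 or sh-IGF2BP3 3, where 25.2%, 14.6% and 19.9% of all genes were), and upper-quartile scaling gave 2 lower without overlap. With 1 library left out, the median over the set ranged from 0.33 to 0.67, with 0.33 for sh-IGF2BP3 2, where ATP synthase was at 0.36 and the complex IV subunits at 0.39. The median of complex II ranged from 0.047 (without sh-NC 3) to 0.20 with 1 library left out, and that of complex IV assembly was 0.42 with the transcript trends removed. IGF2BP3 was at −0.20 with the gene trends and −0.20 with the transcript trends removed, with overlap in both. The cause of these changes was not tested.

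Signs turned for 8 of the 54 tested genes. With the gene trends removed, SDHD was at 0.094 (0.094 with the replicate block added), CYC1 at −0.034 (−0.031) and COX7A2L at 0.20 (0.19). With the transcript trends removed, SDHD was at 0.045, COX7A2L at 0.22 and ATP5PO at −0.19. Upper-quartile scaling gave −0.013 for UQCRC2, −0.049 for ATP5PO and −0.045 for COX18, and at least 10 counts in every library gave −0.016 for ATP5PO and −0.0070 for COX18. With 1 library left out, COX6B2 ranged from −0.90 to 0.096, ATP5PO from −0.20 to 0.14, COX7A2L from −0.10 to 0.046, COX18 from −0.088 to 0.055 and COX16 from −0.046 (without sh-IGF2BP3 3) to 0.73. The cause was not tested.

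The study speaks of pairs of cells, but no source used here ties the replicate numbers to them. Same-numbered libraries did not deviate together (correlations −0.284, −0.186 and −0.043), and no library was closest to its own number, so the numbers were not taken as pairs. With the replicate block, 29 genes were higher at an unadjusted p under 0.05, the median was 0.51 and 0 were called; counts of groups without overlap take no block. Genes near 1 CPM, such as COX6B2, COX7A1 and COX16, had few counts (83, 59 and 137 over all libraries), and an effect of depth on them was not tested.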
